A study of Mus musculus with 36 samples.

Results

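The cholesterol synthesis and transport genes described here were 27 genes picked by symbol, out of 52636 genes with a count in each library. They comprised 7 genes of the mevalonate steps, 10 genes of the steps from squalene to cholesterol, 3 regulators of the pathway, 6 genes of sterol transport and esterification, and Acss2, which encodes a synthetase that makes acetyl-CoA from acetate. All 27 were found in the files, where the read count of each gene in each of the 36 RNA-seq libraries was taken. All 27 passed the filter on low counts in both sets of intestines, and 24 passed it in the fibroblasts, where Npc1l1, Abcg5 and Abcg8 had too few reads. The libraries came from mouse embryos carrying mutant caspase-8, the protease that starts death-receptor apoptosis and restrains necroptosis, and the study asked what the loss of its partner cFLIP (gene Cflar) does to such embryos.

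There were 12 groups of 3 libraries, and in each of 3 sets Mlkl-/- samples served as controls. The D387A set held intestines taken at embryonic day E18.5 from Mlkl-/- controls, from Casp8 D387A knock-in embryos with intact Mlkl (called D387A below), and from D387A knock-ins that also lacked Cflar and Mlkl (D387A Cflar Mlkl). It further held the latter genotype with Casp1 deleted (D387A Cflar Mlkl Casp1), and with Casp1 and either Ifnar1 or Fadd deleted. D387A blocks a processing site within caspase-8. The C362A set held E18.5 intestines from its own Mlkl-/- controls and from knock-ins of C362A, the catalytic cysteine mutant, that lacked Mlkl, Mlkl and Casp1, or Cflar and Mlkl. Mouse embryonic fibroblasts (MEFs) were of 2 genotypes, Mlkl-/- and D387A Cflar Mlkl. Apart from D387A, each group therefore lacked Mlkl, so the D387A comparison differs from its controls in both Casp8 and Mlkl. Within the D387A set the leading number in the sample titles was shared only by the controls and D387A Cflar Mlkl, and for the other genotypes that number and the genotype cannot be told apart.

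Cells make cholesterol from acetyl-CoA through mevalonate, squalene and lanosterol. When sterols in the endoplasmic reticulum are low, an escort protein carries the precursor of the transcription factor SREBP2 to the Golgi, where proteases release the active factor, which raises transcription of most enzymes of the pathway. INSIG proteins hold the escort and precursor back when sterols are plentiful. In the small intestine, absorptive enterocytes take up luminal cholesterol through NPC1L1, esterify part of it with the acyltransferase encoded by Soat2 for export in lipoproteins, and return sterols to the lumen through the transporter formed by ABCG5 and ABCG8.

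Between 17943524 and 32307629 reads per library fell on genes. Deleted genes were checked by their counts scaled to library size (CPM). Casp1 was at 0 to 0.212 CPM in the Casp1-deleted intestines and at 42.6 to 124 CPM in the others. Fadd was at 0.659 to 1.01 CPM where deleted and 25.5 to 50.5 CPM elsewhere in the intestines, and Ifnar1 at 33.2 to 37.9 against 77.9 to 103 CPM. Reads on Mlkl and Cflar remained in groups labelled as lacking them, so whole-gene counts do not check those alleles. Mlkl in D387A Cflar Mlkl Casp1 was at 6.27, 7.46 and 46.1 CPM, the third embryo standing apart. Controls of the D387A set were at 4.78 to 5.35 CPM and D387A Cflar Mlkl at 22.2 to 26.9 CPM. The Ifnar1-deleted group was at 45.8 to 55.9 CPM and the Fadd-deleted group at 55.4 to 62.6 CPM. As to tissue identity, the summed CPM of 9 epithelial markers was 4035 to 6520 in the intestines and 40.5 to 67.7 in MEFs.

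Levels per length are given in reads per kilobase of gene scaled to library size (RPKM), computed here from the deposited counts. In control intestines the highest member level was that of Insig1, an INSIG gene. Its group mean was 158 RPKM in the D387A set and 238 RPKM in the C362A set. It was followed in both sets by Msmo1, a methylsterol oxidase (107 and 139 RPKM), Hmgcs1, the synthase that makes HMG-CoA (83.8 and 88.0 RPKM), and Npc1l1 (74.6 and 80.9 RPKM). Neighbours in this order did not all differ beyond their spread: Npc1l1 was at 80.6, 77.7 and 65.6 RPKM in the D387A set controls and Hmgcs1 at 82.4, 82.9 and 86.2 RPKM. Hmgcs1 was highest in MEF controls, with a mean of 233 RPKM, ahead of Msmo1 at 178 RPKM and Sqle, squalene epoxidase, at 129 RPKM. Insig1 was lower there, at 61.4 RPKM. At the other end, Idi1 and Fdps held only 2547 and 3520 reads over all 36 libraries, and their levels are accordingly less certain. The study kept uniquely mapped reads alone, and whether this lowered the level of any gene was not tested. Reads of Fdft1, Tm7sf2 and Acss2 could be shared with genes whose exons overlap theirs, and Acat2 has a near copy, Acat3.

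**Figure D1:**
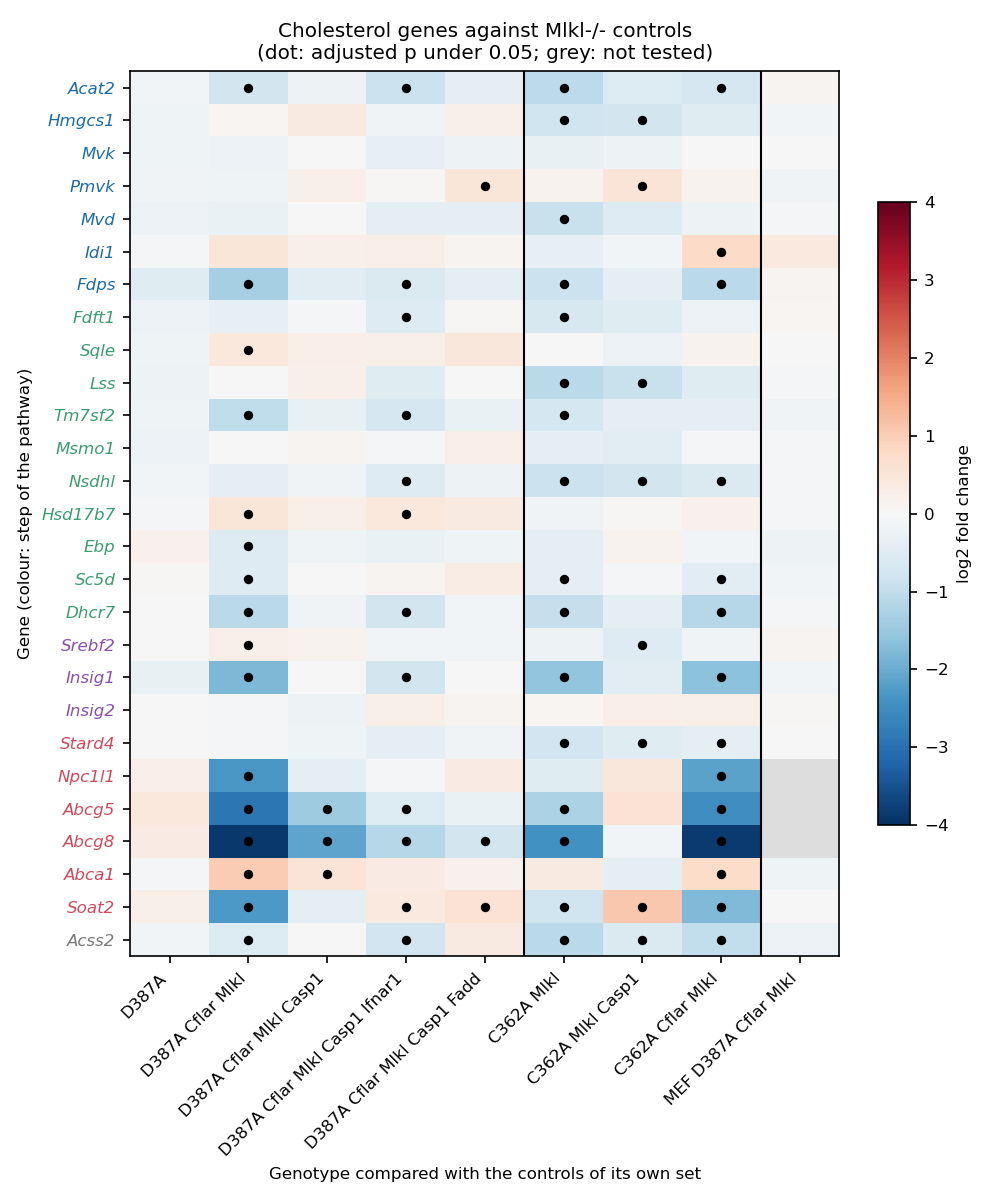
Log2 fold change of each of the 27 genes (rows, coloured by step of the pathway) against the Mlkl-/- controls of the same set, for 5 genotypes of the D387A set, 3 of the C362A set and the MEFs (columns), with dots for adjusted p under 0.05. The darkest cells are Abcg8, at -3.86 in D387A Cflar Mlkl and -3.83 in C362A Cflar Mlkl, and the D387A and MEF columns hold no dot.

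The first comparison sets D387A Cflar Mlkl intestines against Mlkl-/- controls, from which they differ in both Casp8 and Cflar. The mutants had less RNA for 4 of 6 genes of sterol transport and esterification (Npc1l1, Soat2, Abcg5 and Abcg8) and for Insig1, more for Abca1, and a mixed picture among the synthesis enzymes. Throughout, a gene was called when its p from edgeR's quasi-likelihood test, adjusted by Benjamini and Hochberg's method over all genes, was under 0.05. Of the 27 members 4 rose and 12 fell, when 59.4% of all 18360 genes tested were called (29.9% rose and 29.5% fell), so the number of members called was near the background. The falls of over 2-fold were 8 of 27, against a background of 12.8% of all genes, and the median log2 fold change was -0.33 over the members and -0.01 over all genes. By role, 4 of 6 transport and esterification genes fell and 1 rose, 2 of 7 mevalonate genes fell, 4 of 10 genes of the later steps fell and 2 rose, Srebf2 rose and Insig1 fell among 3 regulators, and Acss2 fell. In bulk tissue, fewer cells of a type and less RNA per cell cannot be told apart.

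Npc1l1 (GRCm38 chr11:6211013-6230143, minus strand), which encodes the uptake transporter, was at 80.6, 77.7 and 65.6 RPKM in the 3 controls and at 17.4, 13.7 and 13.2 RPKM in the 3 D387A Cflar Mlkl intestines. It fell by 2.34 ± 0.13 on the log2 scale (SE, adjusted p = 1.78e-10). Soat2 (chr15:102150526-102163469, plus strand), whose product esterifies cholesterol in enterocytes, went from 38.5, 41.3 and 35.0 RPKM to 8.47, 6.99 and 7.91 RPKM, and fell by 2.30 ± 0.15 (adjusted p = 8.44e-10). For both genes all 3 mutants lay below all 3 controls, with a wide gap between the groups. Groups did not overlap for 14 of 27 members, and for 68.1% of all genes.

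The export transporter genes Abcg5 (chr17:84658234-84683011, minus strand) and Abcg8 (chr17:84676302-84700333, plus strand) are read in opposite directions. RefSeq lists 2 starts for Abcg8. The one upstream of Abcg5, at position 84683121, is separated by 109 bases from the Abcg5 start at 84683011, whereas the other lies within the stretch that Abcg5 spans. The 109 bases are shown because the pair fell together. They are RefSeq sequence of GRCm38.p6, chr17:84683012-84683120, plus strand, with Abcg5 to the left and Abcg8 to the right, and capitals mark TTATCT, the reverse complement of the GATA element AGATAA.
Abcg5 and Abcg8: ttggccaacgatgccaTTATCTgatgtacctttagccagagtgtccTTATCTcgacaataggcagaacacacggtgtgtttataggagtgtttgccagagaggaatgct

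Abcg5 was at 30.8, 30.7 and 26.4 RPKM in controls and 4.60, 3.67 and 3.68 RPKM in D387A Cflar Mlkl, and fell by 2.88 ± 0.23 on the log2 scale (adjusted p = 1.17e-08). Abcg8 was at 29.4, 27.5 and 24.5 RPKM and 2.06, 1.87 and 1.65 RPKM, respectively, and fell by 3.86 ± 0.20 (adjusted p = 6.54e-11), the largest fall among the 27 genes in this comparison. The groups did not overlap for either gene. The pair did not fall in equal measure: the ratio of Abcg8 to Abcg5 RPKM was 0.896 to 0.953 in the 3 controls and 0.448 to 0.509 in the 3 mutants. The exons of the pair overlap by 82 bases. Abca1 (chr4:53030787-53159895, minus strand), which moves cholesterol out of cells to apolipoproteins, went the other way, from 1.81, 2.20 and 2.35 RPKM to 3.72, 3.80 and 5.36 RPKM, and rose by 1.02 ± 0.17 (adjusted p = 6.15e-05). Its rise was 0.83 without the third mutant embryo. Stard4, a cytosolic sterol carrier, differed by -0.05 ± 0.15 (adjusted p = 0.775).

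**Figure D2:**
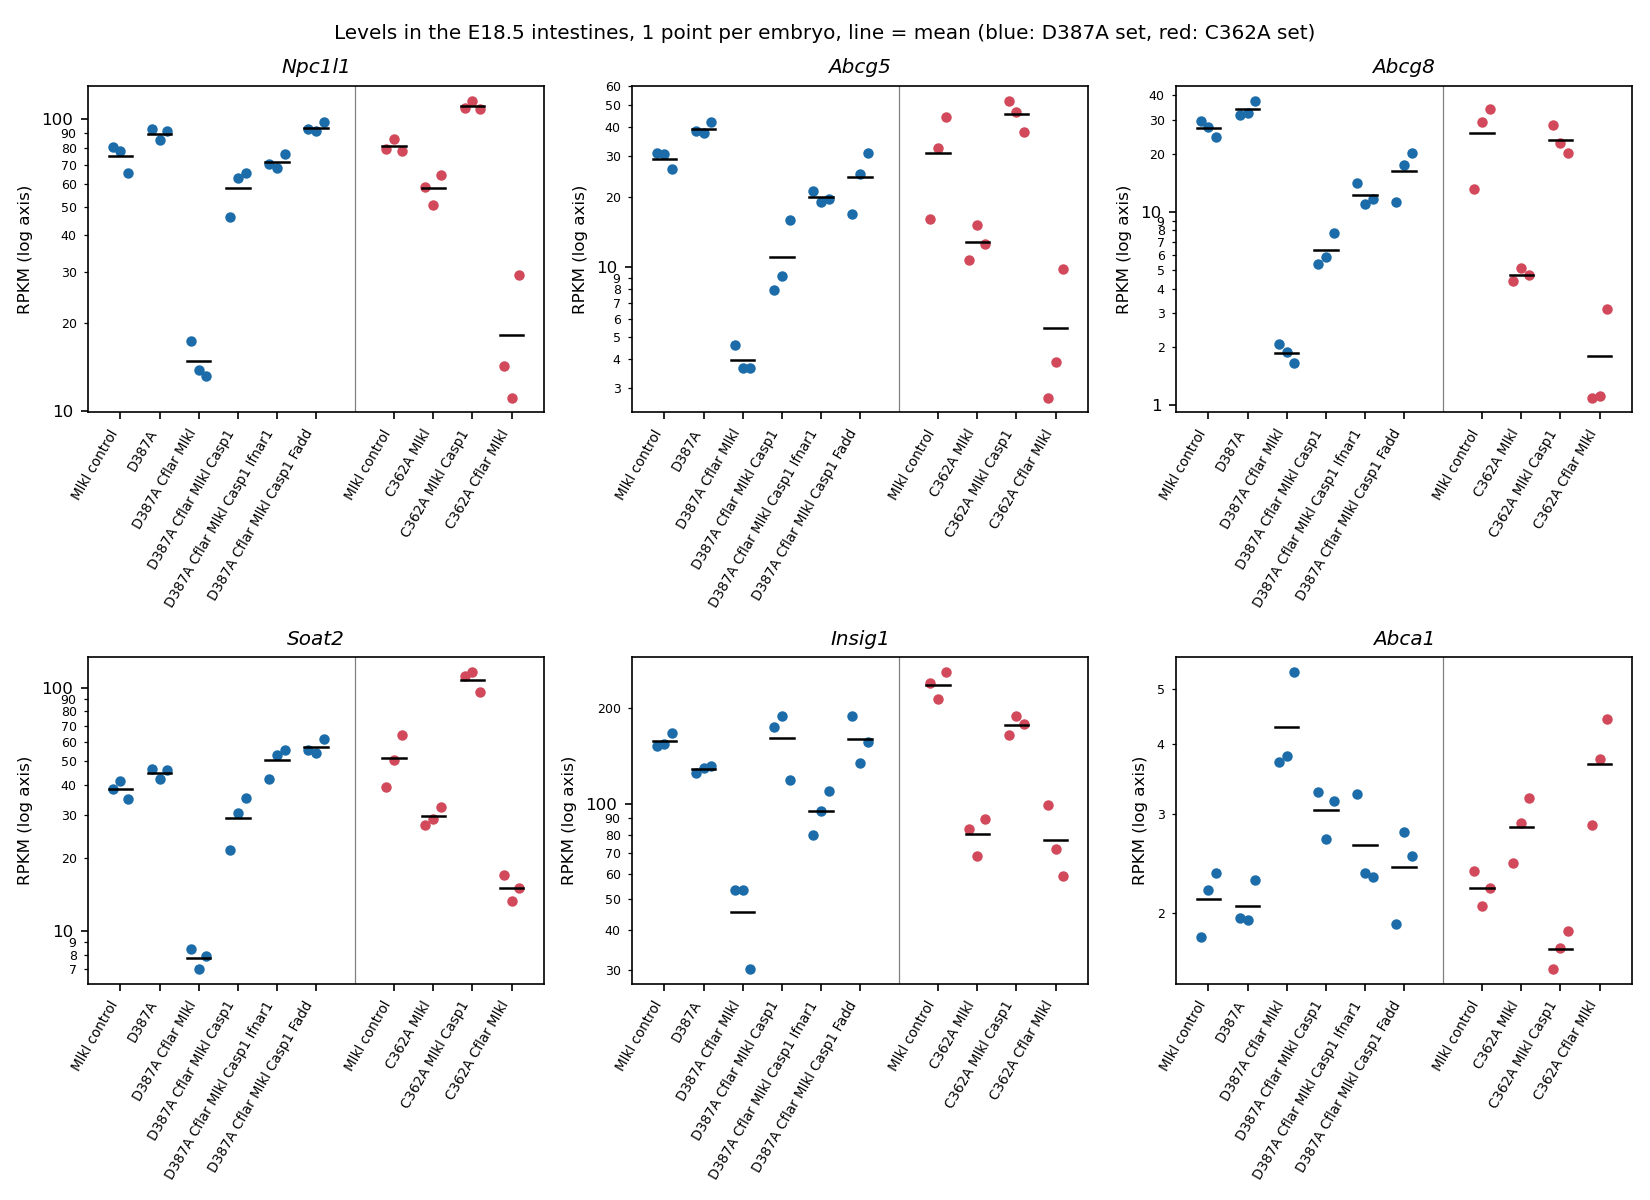
Levels of Npc1l1, Abcg5, Abcg8, Soat2, Insig1 and Abca1 in RPKM (log axes that differ between panels) in each E18.5 intestine, with 1 point per embryo and a line at the group mean, in blue for the D387A set and red for the C362A set. The 3 D387A Cflar Mlkl embryos are the lowest of the D387A set in 5 panels and the highest for Abca1.

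Among the regulators, Insig1 (chr5:28071363-28078662, plus strand) was at 153, 155 and 167 RPKM in controls and 53.4, 53.4 and 30.1 RPKM in D387A Cflar Mlkl. It fell by 1.79 ± 0.20 on the log2 scale (adjusted p = 7.7e-07). All mutants lay far below all controls. Srebf2, which encodes SREBP2, was at 61.0, 56.4 and 56.1 RPKM against 71.1, 79.1 and 55.6 RPKM, and rose by 0.25 ± 0.10 (adjusted p = 0.0445). The third mutant embryo was below all controls, and that call was lost on leaving out any 1 of 4 libraries (log2 difference 0.13, adjusted p = 0.280 without the second mutant). Insig2, the second INSIG gene, differed by -0.07 ± 0.10 (adjusted p = 0.559) and stood at 10.2 to 11.5 RPKM in all 6 libraries.

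Insig1 and Hmgcs1 are both classical targets of SREBP2 and are shown side by side because only Insig1 fell in D387A Cflar Mlkl. Both fell in C362A Mlkl and on Ifnar1 loss, described below. The 250 bases before each RefSeq start (GRCm38.p6, plus strand) are chr5:28071162-28071411 for Insig1 and chr13:119690101-119690350 for Hmgcs1. Capitals mark ATTGG, the reverse complement of the CCAAT box, in Insig1 the E-box CACGTG, and in Hmgcs1 a match to the sterol regulatory element core TCACNCCAC.
Insig1: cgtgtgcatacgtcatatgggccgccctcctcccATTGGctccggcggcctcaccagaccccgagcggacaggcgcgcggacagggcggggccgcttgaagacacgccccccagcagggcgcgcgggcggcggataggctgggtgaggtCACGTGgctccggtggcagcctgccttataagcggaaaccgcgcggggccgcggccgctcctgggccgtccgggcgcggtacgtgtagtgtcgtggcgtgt
Hmgcs1: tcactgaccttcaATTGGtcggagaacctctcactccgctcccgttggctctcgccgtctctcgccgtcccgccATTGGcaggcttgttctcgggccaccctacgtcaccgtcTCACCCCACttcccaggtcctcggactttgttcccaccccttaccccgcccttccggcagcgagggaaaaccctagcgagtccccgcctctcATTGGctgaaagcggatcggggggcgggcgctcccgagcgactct

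Hmgcs1 was at 82.4, 82.9 and 86.2 RPKM in controls and 102, 110 and 53.6 RPKM in D387A Cflar Mlkl, a log2 difference of 0.08 ± 0.18 (adjusted p = 0.718). The first and second mutant embryos lay above all controls and the third below them. The third embryo had the lowest level of its group for 17 of 17 synthesis enzyme genes, and the median of their log2 ratios to the control mean was -0.85 in it, against -0.11 and 0.06 in the other embryos. Its depth, at 21766515 reads on genes, was within the range of the set, and its summed CPM of absorptive enterocyte markers, at 2361, lay between the 3221 and 1760 of the other mutants. It was above the others in the sums of macrophage (502 against 400 and 371 CPM), pancreatic acinar (14.3 against 3.07 and 2.28 CPM) and erythroid markers (274 against 138 and 205 CPM), and the part of these cells was not tested. The enzymes' values in this comparison are therefore also given without it.

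Of the mevalonate genes, Fdps, farnesyl diphosphate synthase, was at 4.89, 5.57 and 4.23 RPKM in controls and 1.93, 2.58 and 1.40 RPKM in D387A Cflar Mlkl. It fell by 1.31 ± 0.20 (adjusted p = 1.85e-05), or by 1.11 without the third embryo. Acat2, the thiolase that joins 2 acetyl-CoA molecules, fell by 0.75 ± 0.20 (adjusted p = 0.0032), and by 0.47 without the third embryo. Mvk, Pmvk and Mvd, which carry mevalonate to isopentenyl diphosphate, differed by -0.22 ± 0.16, -0.16 ± 0.15 and -0.26 ± 0.22, and Idi1, the isomerase of that product, by 0.49 ± 0.22, none of them past the threshold. Without the third embryo Mvk, Pmvk and Mvd were at -0.02, 0.04 and 0.03, and Hmgcs1 (log2 difference 0.34, adjusted p = 0.0084) and Idi1 (0.71, adjusted p = 0.00704) were higher in the mutants. Without the second, Mvk (-0.39, adjusted p = 0.0492) and Mvd (-0.53, adjusted p = 0.0475) were called lower.

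Of the later steps, Dhcr7, the reductase that completes cholesterol, was at 60.3, 53.4 and 59.1 RPKM in controls and 30.6, 33.0 and 18.9 RPKM in D387A Cflar Mlkl, and fell by 1.07 ± 0.15 (adjusted p = 1.3e-05). Tm7sf2, a sterol reductase acting after lanosterol, fell by 1.02 ± 0.15 (adjusted p = 1.41e-05), the sterol desaturase gene Sc5d by 0.52 ± 0.12 (adjusted p = 0.00177) and the sterol isomerase gene Ebp by 0.50 ± 0.11 (adjusted p = 0.000589). Without the third embryo they fell by 0.85, 0.81, 0.35 and 0.39, all still called. Sqle rose by 0.42 ± 0.16 (adjusted p = 0.0345), from 55.6, 54.1 and 55.9 RPKM to 87.0, 87.1 and 48.0 RPKM, with the third embryo below all controls. Hsd17b7, an enzyme of sterol demethylation, rose by 0.47 ± 0.15 (adjusted p = 0.0106). The call of Sqle was lost on leaving out any 1 of 5 libraries and that of Hsd17b7 on leaving out either of 2. Leaving out the second mutant ended both calls (Sqle 0.29, adjusted p = 0.175, and Hsd17b7 0.36, adjusted p = 0.0623), whereas without the third they were 0.66 and 0.65. The squalene synthase gene Fdft1 (-0.33 ± 0.18), the lanosterol synthase gene Lss (-0.02 ± 0.20), Msmo1 (0.01 ± 0.18) and Nsdhl (-0.35 ± 0.15, adjusted p = 0.0503), the last 2 acting in sterol demethylation, did not pass the threshold. Without the third embryo they were at -0.08, 0.27, 0.26 and -0.13, again not past it. Without the second mutant Fdft1 (-0.54, adjusted p = 0.0175) and Nsdhl (-0.52, adjusted p = 0.00753) were called lower, as was Nsdhl without the first (-0.43, adjusted p = 0.0415). Acss2 fell by 0.54 ± 0.15 (adjusted p = 0.0052), and by 0.31 without the third embryo.

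**Figure D3:**
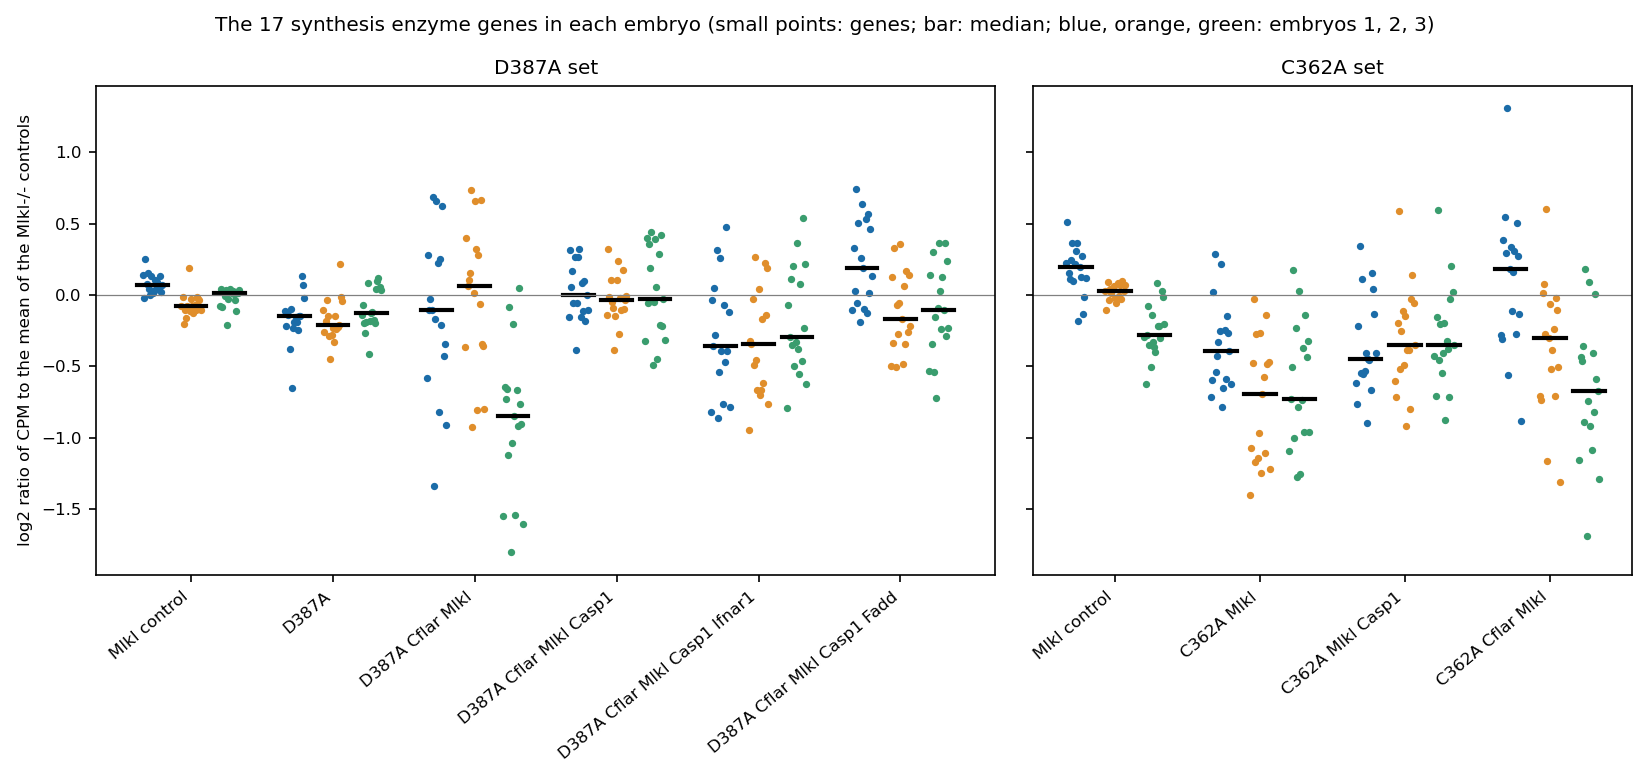
Log2 ratio of CPM to the mean of the Mlkl-/- controls of the same set for the 17 synthesis enzyme genes (small points) in each E18.5 intestine, with a bar at the median and colours for embryos 1, 2 and 3 of a group. In D387A Cflar Mlkl the median is -0.85 in the third embryo and -0.11 and 0.06 in the others, and in C362A Cflar Mlkl it is 0.18, -0.30 and -0.67.

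Cell type markers moved with these genes. The summed CPM of 9 absorptive enterocyte markers was 39313 to 44609 in the D387A set controls and 1760 to 3221 in D387A Cflar Mlkl, where 8 of 9 fell with a median log2 fold change of -3.43. Of 9 general epithelial markers, 4 rose and 2 fell, and their sum was 5329 to 5757 CPM in these mutants against 4541 to 5137 CPM in controls. Of 7 macrophage markers 6 rose and 1 fell, but their sums overlapped, at 371 to 502 CPM in mutants and 413 to 444 CPM in controls. Of the others, 5 of 7 fibroblast and 5 of 6 smooth muscle markers rose. For neurons and glia 2 of 6 markers fell, with sums of 105 to 116 CPM against 154 to 163 CPM in controls. The hepatocyte sum was 82.2, 510 and 59.2 CPM in controls and 4.23, 64.6 and 2.44 CPM in mutants. The part of these markers' cells in the results on the cholesterol genes was not tested.

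D387A intestines with intact Cflar and Mlkl were set against the same controls. No member passed the test, when 0.00545% of all genes did. At an unadjusted p under 0.05 there was 1 of 27 (5.02% of all genes), and limma-voom and DESeq2 also called 0. The log2 differences ran from -0.49 (Fdps, SE 0.19) to 0.43 (Abcg5, SE 0.21). Npc1l1 was at 92.6, 84.8 and 90.9 RPKM, Abcg5 at 38.4, 37.9 and 42.0 RPKM and Abcg8 at 31.7, 32.3 and 37.5 RPKM, and all 3 values were above those of the controls for each of these genes. Groups did not overlap for 13 of 27 members, against 15.6% of all genes, and 20 of the 27 log2 differences were negative, against 44.8% over all genes. The title number differs between these groups, so it cannot be told apart from the genotype here. Insig1 was at 125, 130 and 132 RPKM, all below the controls (log2 difference -0.30 ± 0.20, adjusted p = 0.966).

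Deletion of Casp1, the inflammatory caspase, in D387A Cflar Mlkl was examined next by comparing those embryos directly. Here 12 of 27 members rose and 1 fell, when 46.9% of all genes were called and 24.5% rose, and 5 rose over 2-fold against a background of 8.88%. The comparison shares the D387A Cflar Mlkl libraries with the one above. Without the third D387A Cflar Mlkl Casp1 embryo, 12 again rose, 6 of them over 2-fold, and 1 fell. Npc1l1 was at 46.2, 63.0 and 65.7 RPKM in D387A Cflar Mlkl Casp1, higher by 1.98 ± 0.13 on the log2 scale than with Casp1 (adjusted p = 3.56e-09). Soat2, at 21.7, 30.7 and 35.2 RPKM, rose by 1.90 ± 0.15 (adjusted p = 2.18e-08). Insig1, at 175, 189 and 119 RPKM, rose by 1.82 ± 0.20 (adjusted p = 1.66e-06), and its 3 values spanned those of the controls. Abcg5 and Abcg8 rose by 1.47 ± 0.23 and 1.76 ± 0.20. Among the enzymes, Dhcr7 (0.93 ± 0.15), Fdps (0.90 ± 0.20), Tm7sf2 (0.73 ± 0.15), Acat2 (0.55 ± 0.20), Sc5d (0.49 ± 0.12) and Ebp (0.34 ± 0.11) rose, as did Acss2 (0.53 ± 0.15), whereas Abca1 fell by 0.49 ± 0.17. Without the third D387A Cflar Mlkl embryo, the calls of Acat2 (0.26, adjusted p = 0.0883), Ebp (0.22, adjusted p = 0.0981) and Abca1 (-0.30, adjusted p = 0.158) were lost, Dhcr7, Fdps, Tm7sf2 and Sc5d rose by 0.72, 0.70, 0.53 and 0.33, the rise of Acss2 was 0.30, and Sqle (-0.40), Hsd17b7 (-0.41) and Srebf2 (-0.25) were called lower. With Casp1 loss 8 of 9 absorptive enterocyte markers rose over 2-fold (median log2 fold change 2.62), as did 5 of 5 erythroid markers, and 6 of 6 smooth muscle markers fell. Whether these cells contributed was not tested.

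Against Mlkl-/- controls, D387A Cflar Mlkl Casp1 intestines still had less RNA for the export transporter. In all 1 member rose and 2 fell, when 21.4% of all genes were called. Without the third D387A Cflar Mlkl Casp1 embryo, 0 rose and 4 fell. Abcg8 was at 5.37, 5.84 and 7.77 RPKM, and fell by 2.10 ± 0.18 (adjusted p = 1.93e-06), and Abcg5 at 7.98, 9.17 and 16.0 RPKM, and fell by 1.41 ± 0.21 (adjusted p = 0.000283). All 3 embryos lay below all controls for both genes. Abca1 rose by 0.52 ± 0.17 (adjusted p = 0.0374), a call lost on leaving out any 1 of 4 libraries (adjusted p up to 0.162, without the first control). Npc1l1 (-0.36 ± 0.13, adjusted p = 0.0531) and Soat2 (-0.39 ± 0.14, adjusted p = 0.0533) were just outside the threshold, and both were called lower with limma-voom, DESeq2, no filter on low counts or the filter on a mean of 50 reads. No synthesis enzyme gene passed it. The enterocyte marker sum was 20696 to 27443 CPM, between those of D387A Cflar Mlkl and the controls. Over 2-fold, 3 of 5 erythroid markers rose and 4 of 6 hepatocyte markers tested fell, and 4 of 7 macrophage markers rose. The third embryo stood apart in the macrophage sum (703 against 442 and 424 CPM) and the erythroid sum (257 against 1467 and 752 CPM). The part of these cells in these values was not tested.

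Further deletion of Ifnar1, which encodes a chain of the type I interferon receptor, was compared with D387A Cflar Mlkl Casp1. In this comparison 4 members were higher and 6 lower, when 30.6% of all genes were called and 15.1% fell, and none of the 10 changed over 2-fold. By role, 3 of 6 transport and esterification genes rose, 2 of 7 mevalonate genes and 2 of 10 genes of the later steps fell, and the other calls were Insig2, Insig1 and Acss2. Abcg8 (0.95 ± 0.18), Abcg5 (0.86 ± 0.21), Soat2 (0.79 ± 0.14) and Insig2 (0.44 ± 0.10) rose on the log2 scale. Insig1 (-0.76 ± 0.20), Acss2 (-0.74 ± 0.15), Lss (-0.69 ± 0.20), Acat2 (-0.65 ± 0.20), Dhcr7 (-0.59 ± 0.15) and Hmgcs1 (-0.49 ± 0.18, adjusted p = 0.0452) fell. Of the 4 enzyme genes that fell, 3 lost the call on leaving out single libraries: Hmgcs1 without any 1 of the 6, Acat2 without any 1 of 3 and Lss without either of 2 (adjusted p up to 0.166, 0.0745 and 0.0779, without the second Ifnar1-deleted embryo). Insig1 lost it without the second D387A Cflar Mlkl Casp1 embryo (adjusted p = 0.0502). Without the third embryo of that group, 5 members rose, 2 of them over 2-fold, and 6 fell. Cell type markers also moved. All 5 pancreatic acinar markers tested rose over 2-fold, from sums of 2.68 to 4.29 CPM to 48.0 to 112 CPM, and all 5 erythroid markers fell over 2-fold, from 257 to 1467 CPM to 86.4 to 167 CPM. Of the others, 5 of 9 epithelial markers rose and 5 of 6 neuronal and glial markers fell, and 3 of 9 absorptive enterocyte markers rose and 2 fell. Their part in the member values was not tested.

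Set against Mlkl-/- controls, 2 members rose and 10 fell in the same Ifnar1-deleted embryos, when 48.3% of all genes were called and 23.6% fell. Insig1 was at 79.5, 95.1 and 110 RPKM, below every control (-0.74 ± 0.20, adjusted p = 0.00542). Dhcr7 stood at 33.4, 33.8 and 37.3 RPKM, also below every control (-0.72 ± 0.15, adjusted p = 0.00095). Npc1l1 was at 70.4, 68.3 and 76.2 RPKM, within the control range (-0.06 ± 0.13, adjusted p = 0.728). Soat2, at 42.4, 52.8 and 55.7 RPKM, was above every control (0.39 ± 0.14, adjusted p = 0.0263), a call lost without the third embryo of the group (0.31, adjusted p = 0.121). The remaining calls were lower Acat2, Fdps, Fdft1, Tm7sf2, Nsdhl, Abcg5, Abcg8 and Acss2, from -0.50 for Fdft1 to -1.14 for Abcg8, and higher Hsd17b7 (0.42). Of these, Abcg5, Fdft1, Fdps and Hsd17b7 lost the call on leaving out some single library (adjusted p up to 0.0990, 0.105, 0.0697 and 0.105). In this group the enterocyte sum was 22838 to 32279 CPM. The hepatocyte sum was 6.25 to 7.48 CPM, below the 59.2 to 510 CPM of the controls. Of 7 macrophage markers 5 rose, 3 over 2-fold, with sums of 639 to 743 CPM against 413 to 444 CPM in controls. Epithelial markers rose in 6 of 9 cases and pancreatic acinar markers in 2 of 5. Of neuronal and glial markers 4 of 6 fell, as did 3 of 5 erythroid markers. The part of those cells was not tested.

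Deletion of Fadd, the adaptor that recruits caspase-8, was compared with the same D387A Cflar Mlkl Casp1 embryos, which both this and the Ifnar1 comparison therefore share. The 5 members called all rose, when 17.9% of all genes were called and 10.5% rose: Abcg8 (1.36 ± 0.18), Abcg5 (1.14 ± 0.21), Soat2 (0.97 ± 0.14), Npc1l1 (0.68 ± 0.13) and Insig2 (0.31 ± 0.10), the last lost without the first Fadd-deleted embryo (0.23, adjusted p = 0.180). Without the third D387A Cflar Mlkl Casp1 embryo, 5 members again rose, 3 of them over 2-fold, and 0 fell. In the Fadd-deleted embryos the enterocyte sum was 42022 to 45163 CPM, with 6 of its 9 markers higher than in D387A Cflar Mlkl Casp1. Of 5 erythroid markers 4 fell, all over 2-fold (median -1.99), and of 7 macrophage markers 4 fell and 1 rose. What share these cells had was not tested. Against Mlkl-/- controls, 2 members rose and 1 fell, when 18.4% of all genes were called. Soat2, at 55.7, 53.9 and 61.7 RPKM, was above every control (0.58 ± 0.14, adjusted p = 0.00754). Abcg8, at 11.2, 17.5 and 20.2 RPKM, remained below every control (-0.73 ± 0.17, adjusted p = 0.00671). Pmvk rose by 0.47 ± 0.15 (adjusted p = 0.0404), but by 0.31 (adjusted p = 0.208) without the first Fadd-deleted embryo. Against these controls 4 of 9 epithelial markers rose, and 3 of 9 absorptive enterocyte markers rose and 1 fell. For neurons and glia 2 of 6 markers fell, as did 1 of 6 hepatocyte markers tested. The third Fadd-deleted embryo stood apart in the pancreatic acinar sum (55.6 against 4.12 and 4.31 CPM). The part of these cells was not tested.

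The C362A set asks what catalytically dead caspase-8 does, with and without Cflar or Casp1. In C362A Mlkl intestines 16 of 27 members fell and none rose, when 42.1% of all genes were called, in either direction, and 19.7% fell. The falls covered 4 of 7 mevalonate genes, 6 of 10 genes of the later steps, Insig1, 4 of 6 transport genes and Acss2, with a median of -0.70 over the members against 0.02 over all genes. Insig1 was at 240, 214 and 260 RPKM in the controls of this set and 83.4, 68.5 and 89.5 RPKM in C362A Mlkl, and fell by 1.56 ± 0.18 (adjusted p = 6.95e-06). Lss was at 46.3, 34.6 and 27.3 RPKM against 20.9, 15.2 and 15.1 RPKM (-1.08 ± 0.21, adjusted p = 0.000786), and Stard4 at 71.6, 63.7 and 55.0 against 37.3, 37.3 and 38.0 RPKM (-0.76 ± 0.12, adjusted p = 0.00013). All mutants lay below all controls for these 3 genes. Acss2 (-1.09), Acat2 (-1.04), Dhcr7 (-0.92), Mvd (-0.88), Nsdhl (-0.87), Fdps (-0.85), Hmgcs1 (-0.78), Tm7sf2 (-0.70), Fdft1 (-0.64) and Sc5d (-0.39) also fell.

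Of the transport genes, Abcg8 was at 13.1, 29.3 and 34.0 RPKM in controls and 4.39, 5.09 and 4.71 RPKM in C362A Mlkl, and fell by 2.43 ± 0.37 (adjusted p = 9.81e-05). Abcg5, at 16.0, 32.5 and 44.0 against 10.7, 15.1 and 12.6 RPKM, fell by 1.27 ± 0.39 (adjusted p = 0.0163), and Soat2, at 39.3, 50.7 and 64.0 against 27.4, 29.0 and 32.5 RPKM, by 0.79 ± 0.16 (adjusted p = 0.000967). Npc1l1, at 79.2, 85.5 and 77.9 against 58.4, 51.0 and 64.6 RPKM, did not pass the test (-0.48 ± 0.26, adjusted p = 0.151), although the groups did not overlap, which held for 18 of 27 members and 53.6% of all genes in this comparison. The first control was the lowest of its group for Abcg5, Abcg8 and Soat2, and without it the 3 genes fell by 1.60, 2.76 and 0.97. Abcg5, Fdft1, Fdps, Hmgcs1, Mvd, Sc5d and Tm7sf2 each lost the call on leaving out some single library (adjusted p up to 0.0775, 0.132, 0.118, 0.0565, 0.0501, 0.0755 and 0.0515). The enterocyte sum was 35289 to 53689 CPM in controls and 15183 to 19272 CPM in C362A Mlkl, where 6 of its 9 markers fell. Of 7 macrophage markers 5 rose, with sums of 725 to 746 CPM against 379 to 449 CPM in controls, 5 of 9 epithelial markers rose and 1 fell, and 3 of 6 hepatocyte and 3 of 5 erythroid markers tested fell. Any part of these cells in the calls was not tested.

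In C362A Cflar Mlkl intestines 2 members rose and 12 fell, when 52.8% of all genes were called. Over all genes 24.9% fell. Falls of over 2-fold were 7 of 27 members against a background of 11.2%. Npc1l1 was at 14.2, 11.1 and 29.3 RPKM, and fell by 2.15 ± 0.27 (adjusted p = 1.08e-05). Abcg8, at 1.09, 1.11 and 3.14 RPKM, fell by 3.83 ± 0.40 (adjusted p = 1.96e-06), and Abcg5, at 2.74, 3.89 and 9.80 RPKM, by 2.49 ± 0.41 (adjusted p = 0.00014). The third embryo was the highest of its group for the 3 genes and still below every control. Without it Npc1l1, Abcg8 and Abcg5 fell by 2.68, 4.53 and 3.22. Its enterocyte sum, 8181 CPM, was also above the 2945 and 3474 CPM of the others. Soat2 (-1.76 ± 0.16), Insig1 (-1.63 ± 0.18), Dhcr7 (-1.15), Fdps (-1.07), Acss2 (-0.99), Acat2 (-0.67), Nsdhl (-0.58), Sc5d (-0.42) and Stard4 (-0.34) fell too, and Abca1 (0.73) and Idi1 (0.76) rose. The first embryo had the highest level of its group for 17 of 17 synthesis enzyme genes. Without it Tm7sf2 (-0.70, adjusted p = 0.00369) and Lss (-0.71, adjusted p = 0.0133) were called lower, and the call of Idi1 was lost (0.40, adjusted p = 0.212). Without the first control, Acat2 (-0.54, adjusted p = 0.0582) and Stard4 (-0.24, adjusted p = 0.115) were not called. Against controls 7 of 9 absorptive enterocyte markers fell over 2-fold, 5 of 5 pancreatic acinar markers tested rose over 2-fold, 6 of 7 macrophage markers rose and 1 fell, and 4 of 6 smooth muscle markers rose. Their contribution to the values above was not tested.

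Set beside D387A Cflar Mlkl, which has its own controls, 10 genes fell in both comparisons, of 12 that fell in each: Npc1l1, Abcg5, Abcg8, Soat2, Insig1, Dhcr7, Fdps, Acat2, Sc5d and Acss2. That is 83.3% of each list. Over all genes tested in both, 73.8% of those that fell in D387A Cflar Mlkl also fell in C362A Cflar Mlkl, and 83.2% the other way round, so the members' overlap was near that of all genes. The test of the difference between the 2 fold changes called 0 of 27 members, when 0.0161% of all genes were called, with 1 member at an unadjusted p under 0.05 (16.5% of all genes) and 0 by limma-voom and DESeq2. The differences ran from -0.68 to 0.55 with SEs of 0.20 to 0.56.

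Loss of Cflar within the C362A Mlkl background was compared directly. The 4 members that fell were transport and esterification genes, Npc1l1 (-1.67 ± 0.26, adjusted p = 0.000739), Abcg8 (-1.40 ± 0.38), Abcg5 (-1.22 ± 0.40) and Soat2 (-0.97 ± 0.16), and Idi1 (1.08 ± 0.28) and Stard4 (0.41 ± 0.12) rose, when 19.4% of all genes were called and 12.4% fell. Only Npc1l1 and Soat2 kept the call whichever single library was left out. Calls were also gained: without the third C362A Cflar Mlkl embryo 9 members rose and 4 fell. Without the second C362A Cflar Mlkl embryo Abcg5 was at -1.03 (adjusted p = 0.163) and Abcg8 at -1.15 (adjusted p = 0.0889), and without the first Idi1 was at 0.71 (adjusted p = 0.0816) and Stard4 at 0.37 (adjusted p = 0.0848). Of 9 absorptive enterocyte markers 8 fell, all over 2-fold, with a median of -1.73, and their sum went from 15183 to 19272 CPM in C362A Mlkl to 2945 to 8181 CPM. Of 6 smooth muscle markers 3 rose, with sums of 3229 to 4499 CPM and 6077 to 7155 CPM. Macrophage sums were 725 to 746 CPM in C362A Mlkl and 476 to 596 CPM in C362A Cflar Mlkl. The second C362A Cflar Mlkl embryo stood apart in the hepatocyte sum (142 against 2.34 and 4.75 CPM) and the pancreatic acinar sum (167 against 34.8 and 13.9 CPM). The part of these cells in the values above was not tested.

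Loss of Casp1 in the C362A Mlkl background was accompanied by a rise of 8 members and a fall of 1, when 33.5% of all genes were called and 17.9% rose, and 4 rose over 2-fold against a background of 5.6%. Soat2 reached 111, 116 and 96.3 RPKM in C362A Mlkl Casp1, higher than in C362A Mlkl by 1.86 ± 0.16 (adjusted p = 1.45e-06). Abcg8, at 28.2, 22.6 and 20.1 RPKM, rose by 2.32 ± 0.37 (adjusted p = 0.000285), Abcg5 by 1.83 ± 0.39, and Insig1, at 165, 189 and 178 RPKM, by 1.14 ± 0.18 (adjusted p = 0.00025). Npc1l1, at 110, 116 and 109 RPKM, rose by 0.94 ± 0.26 (adjusted p = 0.0119). Dhcr7 (0.55), Ebp (0.52) and Acss2 (0.50) rose and Abca1 (-0.72 ± 0.15) fell. Without the second C362A Mlkl embryo, Acss2, Dhcr7, Ebp and Npc1l1 (0.86, adjusted p = 0.0528) lost the call, which left 5 of 9. The enterocyte sum was 47928 to 58996 CPM in C362A Mlkl Casp1, with 8 of 9 markers higher than in C362A Mlkl. Of 7 macrophage markers 5 fell and 1 rose, and 3 of 7 fibroblast, 2 of 6 smooth muscle and 2 of 6 neuronal and glial markers fell. The part of these cells was not tested.

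The 8 members that rose with Casp1 loss in the C362A Mlkl background were all among the 12 that rose with Casp1 loss in the D387A Cflar Mlkl background, and these comparisons share no library. The shared members were 100% of the former list and 66.7% of the latter. Over all genes tested in both, the shares were 63.6% and 48.9%. In the test of the difference between the 2 effects only Npc1l1 passed, when 18.9% of all genes did: its rise was larger in the D387A Cflar Mlkl background by 1.07 ± 0.20 on the log2 scale (adjusted p = 0.00576). The backgrounds differ in Cflar as well as in the Casp8 mutation. Without the third D387A Cflar Mlkl embryo 2 members differed and without the third D387A Cflar Mlkl Casp1 embryo 4.

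**Figure D4:**
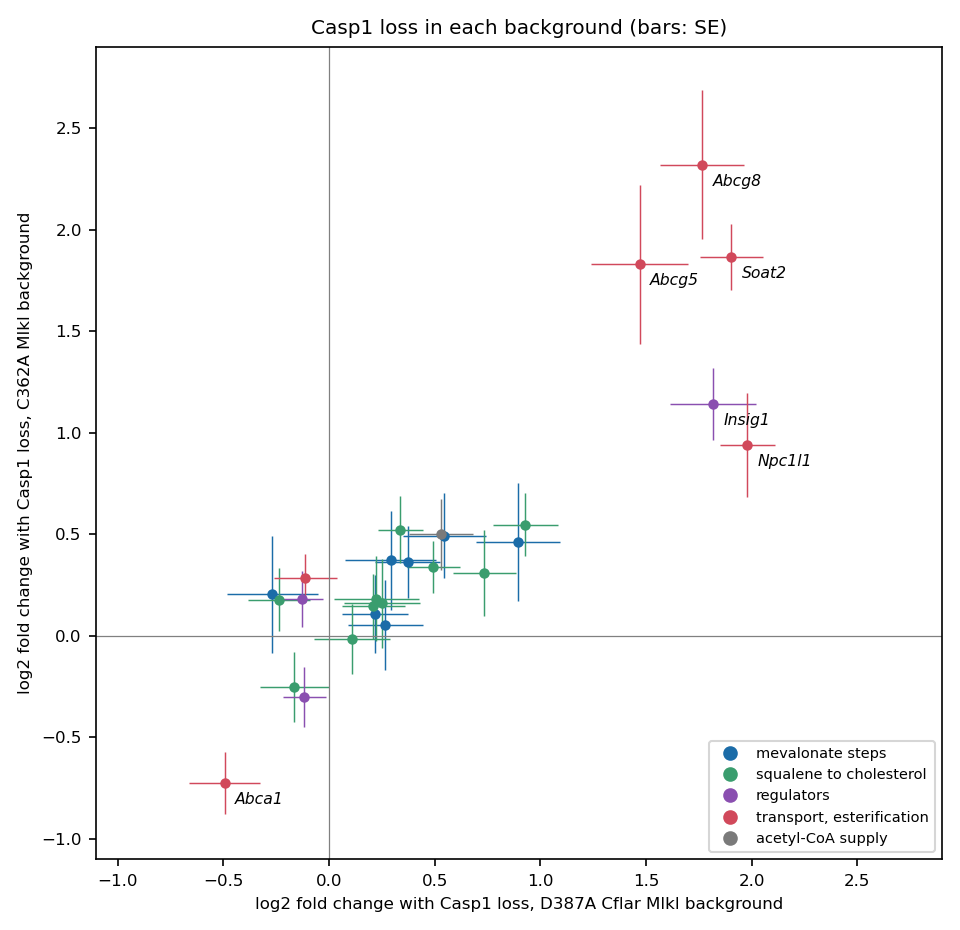
Log2 fold change with Casp1 loss in the D387A Cflar Mlkl background (x axis) and the C362A Mlkl background (y axis), 1 point per gene with SE bars, coloured by step of the pathway. Abcg8, Soat2, Abcg5, Insig1 and Npc1l1 lie at the upper right, and Npc1l1 is at 1.98 on the x axis and 0.94 on the y axis.

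C362A Mlkl Casp1 intestines differed from Mlkl-/- controls in 8 members, 2 higher and 6 lower, when 36% of all genes were called. Soat2 rose by 1.07 ± 0.16 (adjusted p = 0.000164), with all 3 embryos above all controls. Pmvk rose by 0.51 ± 0.18 (adjusted p = 0.0365). The genes that fell were Lss (-0.90 ± 0.21, adjusted p = 0.00456), Hmgcs1 (-0.73), Nsdhl (-0.73), Acss2 (-0.59), Srebf2 (-0.52 ± 0.15, adjusted p = 0.0138) and Stard4 (-0.47). Hmgcs1 was at 125, 81.9 and 57.0 RPKM in controls and 51.7, 53.6 and 53.8 RPKM in mutants, and without the first control its difference was -0.42 (adjusted p = 0.0941). Acss2 also lost its call without that control (-0.50, adjusted p = 0.0557), and Pmvk without the second C362A Mlkl Casp1 embryo (0.45, adjusted p = 0.118). Npc1l1 (0.46 ± 0.26), Abcg5 (0.56 ± 0.38) and Abcg8 (-0.11 ± 0.34) did not pass the test. Of the markers, 6 of 6 neuronal and glial and 3 of 7 fibroblast markers fell, 4 of 7 macrophage markers rose, and 2 of 9 absorptive enterocyte markers rose and none fell. The part of these cells was not tested.

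Cultured MEFs of the genotype D387A Cflar Mlkl showed no member changed among the 24 tested against Mlkl-/- MEFs, when 0.11% of all genes were called. At an unadjusted p under 0.05 there was 1 member (6.47% of all genes), and limma-voom and DESeq2 called 0. The log2 differences ran from -0.23 to 0.40, with SEs of 0.05 to 0.27. Insig1 was at 61.0, 63.7 and 59.6 RPKM in controls and 56.2, 57.3 and 58.5 RPKM in mutants (-0.10 ± 0.05, adjusted p = 0.809). Hmgcs1, at 234, 247 and 219 against 197, 229 and 222 RPKM, overlapped between the groups. The intestinal transport genes were nearly silent: Abcg8 had 0 reads in the 3 controls and 0, 1 and 0 in the mutants, and Npc1l1 0, 0 and 4 against 0, 0 and 1.

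The effect of the genotype was then compared between intestine and MEFs by an interaction term. Of the 24 members tested in both tissues it called 8, when 46.9% of all genes tested in both were called. The fold change was lower in intestine than in MEFs for Soat2 (-2.30 ± 0.23, adjusted p = 5.42e-06), Insig1 (-1.68 ± 0.23, adjusted p = 7.23e-05), Fdps (-1.42 ± 0.32), Dhcr7 (-0.97 ± 0.23), Tm7sf2 (-0.87 ± 0.26) and Acat2 (-0.84 ± 0.29), and higher for Abca1 (1.21 ± 0.21, adjusted p = 0.000538) and Hsd17b7 (0.57 ± 0.17). Soat2 was below 1 RPKM in every MEF library. Npc1l1, Abcg5 and Abcg8, with too few reads in MEFs, are given no difference. Acat2 lost its call in 8 of 12 such fits, at most with an adjusted p of 0.0873 without the first intestinal control. Without the third D387A Cflar Mlkl intestine, 13 of the 24 differed.

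**Figure D5:**
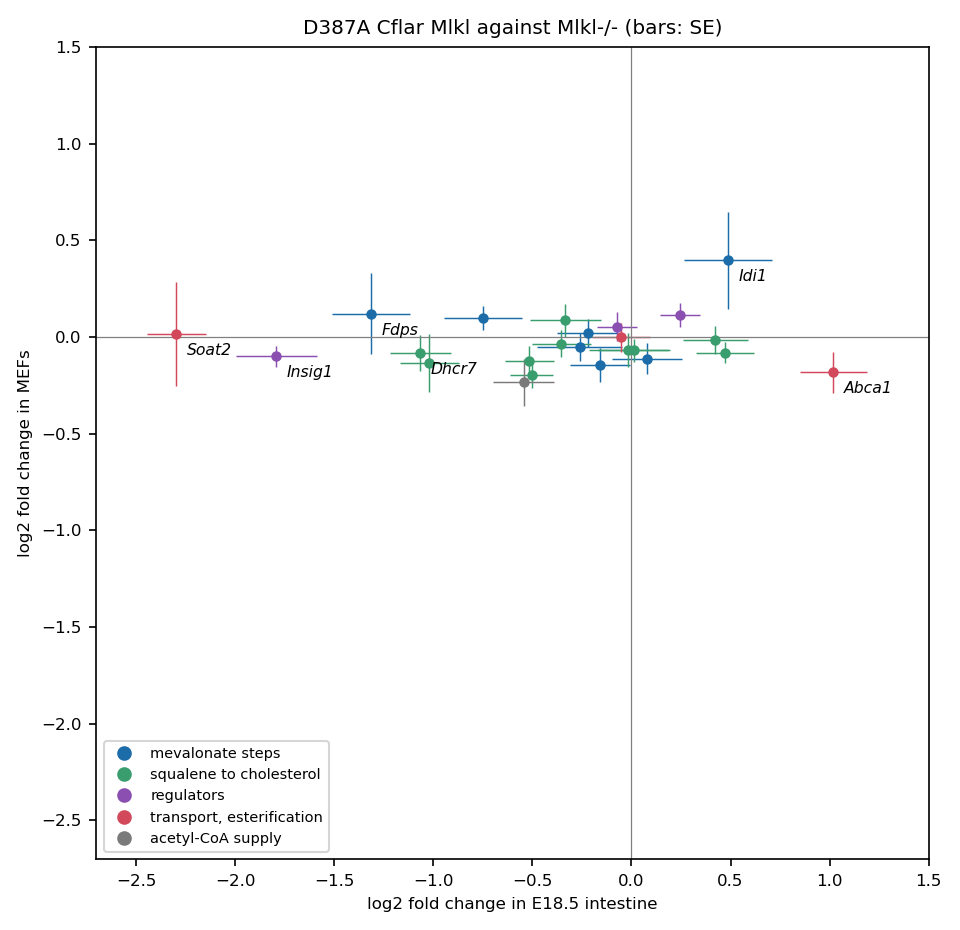
Log2 fold change of D387A Cflar Mlkl against Mlkl-/- in E18.5 intestine (x axis) and in MEFs (y axis) on equal scales, 1 point with SE bars for each of the 24 members tested in MEFs, coloured by step of the pathway. The points spread along the x axis from Soat2 at -2.30 to Abca1 at 1.02, and along the y axis between -0.23 and 0.40.

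The ratio of Abcg8 to Abcg5 varied across the genotypes of both sets. Its median was 0.925 in controls of the D387A set, 0.854 in D387A, 0.449 in D387A Cflar Mlkl, and 0.637, 0.591 and 0.658 in that genotype with Casp1, Casp1 and Ifnar1, or Casp1 and Fadd deleted. In the C362A set it was 0.817 in controls, 0.373 in C362A Mlkl, 0.525 in C362A Mlkl Casp1 and 0.320 in C362A Cflar Mlkl. Every mutant library lay below every control of its set, though in D387A only narrowly, at 0.825 to 0.893 against 0.896 to 0.953. Msmo1 and Mvk did not pass the test in any comparison of intestines.

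The members' RefSeq promoters, from 250 bases before to 50 after a start, were searched on both strands for short motifs, as a description of letters only. Windows on chromosome 18, which holds Stard4, were left out for members and for all genes. For 22 of 27 members 28 windows were found, as some genes have several starts. CCAAT was present in 20 of these 28 windows, in 20 genes, and in 37.408% of the 32851 windows of genes on the other chromosomes. The E-box CACGTG was present in 5 of 28, in as many genes (Abca1, Dhcr7, Hsd17b7, Insig1 and Sc5d), against 7.15% of windows, the element TCACNCCAC in 1, that of Hmgcs1, against 1.242%, and AGATAA in 3, of Abcg5, Abcg8 and Insig2, against 11.178%. The CDX element TTTATNG was present in 5, of Abca1, Abcg5, Abcg8, Insig2 and Pmvk, against 10.91% of windows. The windows of Abcg5 and Abcg8 overlap, so their matches are shared. The HNF4 element CAAAGTCCA (0.475% of windows), the HNF1 element (0.009%) and the LXR element (0.015%) were found in 0 of 28.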

How the data were processed

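RNA from intestines and MEFs was sequenced by the authors, reads were aligned with GSNAP to the mouse genome GRCm38 (mm10), and 1 table per library was deposited with a read count, an RPKM value and a gene width for each of 52636 genes. The counter, annotation release and strand setting are not given in the sources used here, and the labels and the study name different library kits. The deposited counts, 17943524 to 32307629 per library, served for every test. The RPKM values that describe levels were computed here from these counts and the deposited gene widths. Library sizes for them were scaled as in the tests below. The deposited RPKM values were not used for levels. No replicate pair agreed within sampling noise. The study describes Mlkl-/- controls as littermates of D387A Cflar Mlkl, C362A Mlkl and C362A Cflar Mlkl embryos. The labels do not say which embryos shared a litter. Each p-value rests on the spread between samples of a group, estimated jointly over all groups in the fit. That spread was unequal: across groups, the median SD of the synthesis enzyme genes ran from 3.80% of the mean in D387A to 28.7% in D387A Cflar Mlkl.

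Counts were analysed in R 4.3.3 with edgeR 4.0.16 (filterByExpr set to 10 reads in a library and 15 in total, TMM scaling, quasi-likelihood test, Benjamini-Hochberg adjustment over all genes tested). All groups of a set entered 1 fit, as the design fixed, and differences between effects were interaction terms in a fit of the groups involved. Each SE is that of the log2 fold change. A gene rose or fell when its adjusted p was under 0.05. The same comparisons were repeated with DESeq2 1.42.0, limma-voom (limma 3.58.1), DESeq2-style size factors, no filter, a filter on a mean of 50 reads, a fit of the 2 groups compared only, a replicate block, and leaving out each library. The scripts were tested on simulated data first. All 27 members are named. From further lists, at most the 3 genes with the largest change over 2-fold with groups that did not overlap are named. The members and lists were chosen with earlier results of these data known. Replicate numbers were checked for pairing by correlating deviations from the group means: every same-numbered pair was over 0.1 for D387A (0.111 to 0.220) and for MEFs (0.181 to 0.310), each against controls, and in no other comparison. Promoters came from a RefSeq table of GRCm38.p6 and were matched by symbol.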

Additional observations from a re-analysis of the deposited data

Results flagged for a closer look

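In 8 of the 24 members tested in both tissues, the fold change of D387A Cflar Mlkl against Mlkl-/- controls differed between E18.5 intestine and MEFs by a test of the difference itself (edgeR's quasi-likelihood test of an interaction term, adjusted over all genes). That is 33.3% of these members, against 46.9% of all genes tested in both. The intestinal log2 fold change was lower than that of MEFs by an interaction of -2.30 for Soat2, -1.68 for Insig1, -1.42 for Fdps, -0.97 for Dhcr7, -0.87 for Tm7sf2 and -0.84 for Acat2, and higher by 1.21 for Abca1 and 0.57 for Hsd17b7. In Npc1l1, the effect of Casp1 loss differed between the D387A Cflar Mlkl and C362A Mlkl backgrounds, with a larger rise by 1.07 in the former, when the effects differed for 18.9% of all genes. The part of absorptive enterocyte number in these differences was not tested.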

How the results depend on the processing

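No call reversed under any alternative. The number of members called moved by over 1.5 times under some alternative in 9 of 17 comparisons, in 4 of them only on leaving out 1 library, and the cause was not tested. For D387A Cflar Mlkl Casp1 against controls it was 5 with limma-voom, DESeq2, no filter or the filter on a mean of 50 reads, in place of 3, the gains being Npc1l1 and Soat2. For D387A Cflar Mlkl Casp1 Fadd against controls it was 5 with DESeq2 and 9 with only the 2 groups compared, in place of 3, and for Fadd loss 3 with only those groups, in place of 5. For C362A Mlkl Casp1 against controls it was 14 with no filter and 17 with only the 2 groups, in place of 8, and for Casp1 loss in C362A Mlkl 16 with only the 2 groups, in place of 9. Leaving out 1 library at a time gave 14 to 18 members for D387A Cflar Mlkl, 2 to 4 for D387A Cflar Mlkl Casp1, 11 to 17 for C362A Mlkl, 12 to 16 for C362A Cflar Mlkl and 0 to 0 for D387A and for MEFs. It gave 5 to 12 for C362A Mlkl Casp1 (5 without the first control), 5 to 10 for Casp1 loss in C362A Mlkl (5 without the second C362A Mlkl embryo), 10 to 15 for Casp1 loss in D387A Cflar Mlkl, 1 to 4 for the difference between these effects, 7 to 14 for that between intestine and MEFs (7 to 13 over the 24 members tested in both), and 0 to 1 for that between D387A Cflar Mlkl and C362A Cflar Mlkl (1 without the third C362A Cflar Mlkl embryo). For Cflar loss in C362A Mlkl it gave 2 to 13 in place of 6, namely 3 without the second and 2 without the third C362A Mlkl embryo, and 3 without the first and 13 without the third C362A Cflar Mlkl embryo. The rise of Sqle in D387A Cflar Mlkl was also lost with limma-voom (adjusted p = 0.0621) and with only the 2 groups (0.0776), and Nsdhl was called lower with limma-voom (0.0324) and DESeq2 (0.0426).

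With the replicate number as a block, no call changed for D387A or MEFs. There every same-numbered pair correlated over 0.1, though no label gives a pairing. Elsewhere not every pair correlated over 0.1, and the samples were taken to share only a number. There the block gave 15 members in place of 16 for D387A Cflar Mlkl, where Srebf2 lost its call (adjusted p = 0.0564), 4 in place of 3 for D387A Cflar Mlkl Casp1, where Soat2 was called lower (0.0463), 9 in place of 10 for Ifnar1 loss, 4 in place of 5 for Fadd loss, 9 in place of 8 for C362A Mlkl Casp1, 15 in place of 14 for C362A Cflar Mlkl, 10 in place of 9 for Casp1 loss in C362A Mlkl and 8 in place of 6 for Cflar loss there. Every embryo correlated best with its own number in D387A, D387A Cflar Mlkl Casp1 and MEFs, each against controls, a hint from the data and not the design. Idi1 and Fdps had the fewest reads of the 27 members over all libraries, 2547 and 3520.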

Other observations

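Genes around the pathway that are not among the 27 were counted in fixed lists by the same test. Of 14 genes of sterol sensing, efflux and storage, 2 rose and 10 fell in D387A Cflar Mlkl intestines, 3 rose and 6 fell in C362A Mlkl and 2 rose and 8 fell in C362A Cflar Mlkl, against backgrounds of 59.4%, 42.1% and 52.8% of all genes called. Ch25h, whose product makes the oxysterol 25-hydroxycholesterol, rose by 2.20 ± 0.23, 2.08 ± 0.26 and 2.38 ± 0.26 on the log2 scale in the 3 genotypes, from a group mean of 1.41 CPM in D387A set controls to 6.51 CPM in D387A Cflar Mlkl. With Casp1 loss Ch25h fell by 1.71 ± 0.22 in the D387A Cflar Mlkl background and fell by 1.78 ± 0.26 in the C362A Mlkl background. Of 7 macrophage markers 6, 5 and 6 rose in the 3 genotypes, and with Casp1 loss 1 rose and 1 fell in the former background and 1 rose and 5 fell in the latter. Their part was not tested. Lipa, the lysosomal lipase that frees cholesterol from its esters, fell by 2.19 ± 0.14 in D387A Cflar Mlkl and by 2.24 ± 0.20 in C362A Cflar Mlkl, and Lpcat3, a phospholipid acyltransferase, fell by 1.70 ± 0.11 and by 1.76 ± 0.15.

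Of 14 further sterol synthesis and SREBP genes, 3 rose and 3 fell in D387A Cflar Mlkl (where 59.4% of all genes were called), among them Srebf1, the gene of the sister factor SREBP1, which fell by 1.11 ± 0.10. Of 11 fatty acid synthesis genes, 3 rose and 5 fell in D387A Cflar Mlkl (59.4% of all genes called), 1 rose and 7 fell in C362A Mlkl (where 42.1% of all genes were called), and 8 fell in C362A Mlkl Casp1 (36%). Between the latter genotypes 0 of 11 were called by edgeR's quasi-likelihood test, when 33.5% of all genes were, with 1 of 11 at an unadjusted p under 0.05 (43.5% of all genes). Scd2, a stearoyl-CoA desaturase gene, fell by 1.85 ± 0.20 and by 1.75 ± 0.20 in them. In MEFs 0 genes of the 3 lists were called, when 0.11% of all genes were.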
